A study of Mus musculus with 23 samples.

Results

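In all, 9 peroxisomal genes were followed in brown adipose tissue (BAT): catalase (Cat), the fatty acid oxidation genes Ehhadh, Hsd17b4 and Crot, the membrane transporters Abcd2 and Abcd3, and the peroxins Pex5, Pex19 and Pex11a. They were taken by symbol, and all 9 were found among the 14651 genes of the table. They were chosen by their role and with their measured differences by genotype at 4°C and by cold already in view. Their values in those comparisons are therefore given as a description, and a test is read for them only by genotype at RT. How many of them passed the threshold in those comparisons is also counted, and nothing is read from those counts. A further 61 peroxisomal genes, of 67 listed by name, were measured and tested in every comparison. Their list, like those of the regulators and cell type markers, was also drawn up with earlier results of these data known. Their counts by cold and genotype carry that limit.

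RNA was sequenced from the BAT of 23 male C57BL/6 mice aged 8 to 12 weeks. Control mice carried Mcu alleles with loxP sites around exon 2 (Mcu[fl/fl]), and knockout (BAT-Mcu-KO) mice carried the same alleles with a Cre transgene (Mcu[fl/fl];Ucp1-Cre). The Ucp1 promoter drives Cre in cells that express UCP1, so other cells of the tissue keep the gene Mcu, which encodes the pore of the mitochondrial calcium uniporter. At room temperature (RT) there were 6 mice of each genotype, and 5 control and 6 knockout mice were exposed to 4°C for 6 h. By the general protocol, cold mice were housed alone without bedding and had no food, so that cold, lack of food and housing cannot be told apart.

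Peroxisomes shorten very long and branched acyl chains by a β-oxidation pathway of their own, in which the first step hands electrons to oxygen and makes hydrogen peroxide, and catalase breaks this peroxide down. Acyl-CoAs enter through ABC transporters of the D family, and shortened products leave as carnitine esters for the mitochondria. Proteins of the matrix are made in the cytosol and brought in by peroxins. Brown fat is rich in peroxisomes, and many of their genes are known targets of the PPAR nuclear receptors.

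Mcu itself had mean normalized counts of 109.5 in control and 35.1 in knockout mice at RT. After cold the means were 106.9 and 33.9. Every knockout mouse was below every control mouse at both temperatures, with log2 fold changes of -1.66 (adjusted p = 0.00100) and -1.61 (adjusted p = 0.00367). Ucp1, the defining gene of brown adipocytes, had mean normalized counts of 56907 to 165205 in the 4 groups. The 12 brown adipocyte markers were all measured, whereas the liver markers Alb, Apoa1 and Ttr did not reach the table and the fourth, Cyp2e1, had 1159 to 8319 normalized counts. Libraries held 7129271 to 21006347 reads, and each of the 9 genes had 113 to 33261 reads in every mouse. Tests were made with limma on log2(normalized count + 1), with p adjusted by Benjamini-Hochberg over all 14651 genes and a threshold of 0.05. Values after a log2 fold change are its standard error (SE).

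The 250 bases before the start site are shown for 4 of the genes. For Cat, Ehhadh and Pex11a every cold knockout mouse was above every RT knockout mouse. These cold and RT groups did not overlap, in either direction, for 24.2% of all genes. Crot had the most negative log2 fold changes by cold among the 9. The sequences are from RefSeq on GRCm38.p6, 5′ to 3′ on the strand of the gene, with capitals for matches to CCAAT on either strand, and likewise for those to the letters GGGCGG. A match on the opposite strand reads as the reverse complement.
Cat, chr2:103485154-103485403, minus strand: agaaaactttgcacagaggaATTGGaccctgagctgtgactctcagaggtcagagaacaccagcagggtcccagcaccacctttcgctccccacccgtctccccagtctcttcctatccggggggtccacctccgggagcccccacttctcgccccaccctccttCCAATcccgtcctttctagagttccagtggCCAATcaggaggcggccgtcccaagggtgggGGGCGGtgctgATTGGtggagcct
Ehhadh, chr16:21787835-21788084, minus strand: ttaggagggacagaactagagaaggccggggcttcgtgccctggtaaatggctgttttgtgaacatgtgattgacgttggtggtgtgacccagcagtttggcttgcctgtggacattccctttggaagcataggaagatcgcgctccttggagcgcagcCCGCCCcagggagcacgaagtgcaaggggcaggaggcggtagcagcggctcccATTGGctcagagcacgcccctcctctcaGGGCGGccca
Pex11a, chr7:79743132-79743381, minus strand: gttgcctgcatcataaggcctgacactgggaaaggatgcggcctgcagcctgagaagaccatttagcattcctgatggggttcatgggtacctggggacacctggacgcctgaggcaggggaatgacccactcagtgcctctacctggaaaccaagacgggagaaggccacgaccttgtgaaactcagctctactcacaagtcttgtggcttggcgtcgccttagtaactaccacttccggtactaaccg
Crot, chr5:8997147-8997396, minus strand: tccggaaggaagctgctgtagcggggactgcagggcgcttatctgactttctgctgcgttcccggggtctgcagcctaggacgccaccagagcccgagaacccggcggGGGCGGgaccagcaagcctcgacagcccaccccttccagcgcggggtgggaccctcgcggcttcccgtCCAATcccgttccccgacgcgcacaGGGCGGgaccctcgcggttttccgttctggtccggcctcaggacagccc

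The Cat window held 4 CCAAT matches, which began 230, 85, 55 and 13 bases before the start, and 1 GGGCGG match at 24 bases. Ehhadh and Crot each held 1 CCAAT and 2 GGGCGG matches, and the Pex11a window held neither. Of 32851 windows of this length, 33.8% held CCAAT and 32.7% held GGGCGG, and the median GC content was 52.4%, against 62% for Cat, 60.4% for Ehhadh, 55.6% for Pex11a and 69.6% for Crot. The start sites are those of RefSeq. By the GENCODE annotation, which gave the gene positions below, Crot reaches to 8997324 and Cat to 103485160. Part of each of these 2 windows therefore lies within the gene by that annotation. These matches describe letters only, and a motif that is missing here may lie elsewhere.

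Per kilobase of exon, with all annotated exons of a gene merged, Cat was the most abundant of the 9 transcripts in all 4 groups. In control mice at RT it had 4539 ± 380 normalized counts per kilobase (SD, n = 6), against 1461 ± 157 for Hsd17b4, 1364 ± 221 for Ehhadh and 1028 ± 138 for Abcd3. The peroxins followed, with 799 ± 146 for Pex19, 431 ± 49.3 for Pex5 and 326 ± 41.1 for Pex11a. Crot, at 170 ± 18.5, and Abcd2, at 125 ± 24.3, were the lowest. Neighbours in this order whose mice overlapped were Hsd17b4 and Ehhadh, Ehhadh and Abcd3, Abcd3 and Pex19, and Crot and Abcd2. After cold Ehhadh came next to Cat in both genotypes, at 1524 ± 429 per kilobase in control mice (n = 5) and 3197 ± 1899 in knockout mice (n = 6). In the control mice its range overlapped that of Hsd17b4, the next gene. In the knockout mice it overlapped Cat, at 7205 ± 1101. There the highest Ehhadh value, 6883 per kilobase, was that of replicate 4, with 20519 normalized counts against 9910 in the next mouse.

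**Figure D1:**
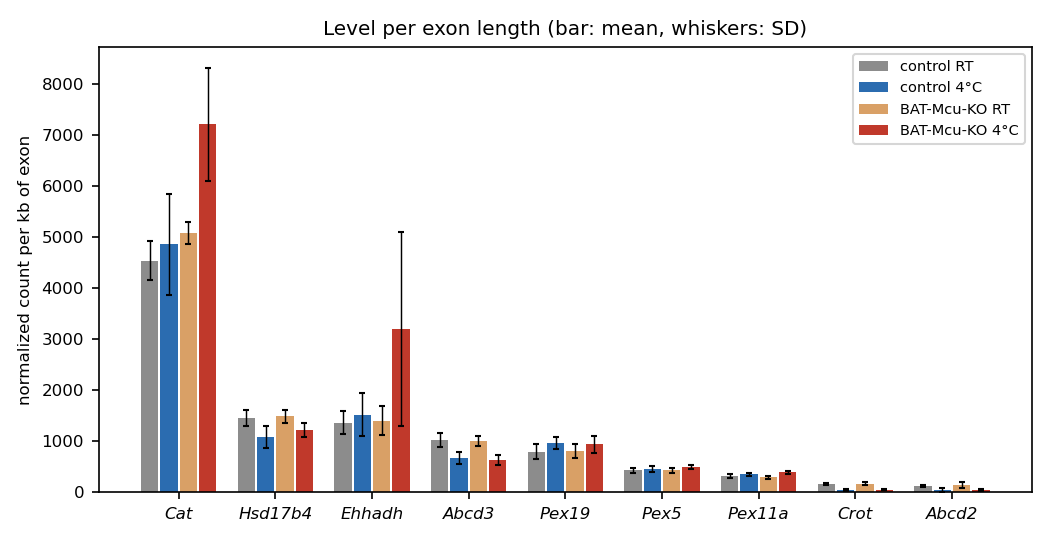
Mean level of each of the 9 genes in normalized counts per kilobase of exon, with the SD as whiskers, in 6 control and 6 knockout mice at RT and 5 control and 6 knockout mice at 4°C. Cat has the tallest bars in every group, and the Ehhadh bar of cold knockout mice stands at 3197 with a wide SD.

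Catalase breaks down the hydrogen peroxide that peroxisomal oxidation makes. Cat (ENSMUSG00000027187.10, chr2:103453849-103485160 on GRCm38, minus strand) is annotated with no overlapping gene. Its normalized count in control mice at RT ran from 10711 through a median of 11674 to 13565, and in knockout mice at RT from 12543 through 13210 to 14035. The 5 control mice at 4°C had 16121, 10711, 14716, 11603 and 10326. The knockout mice at 4°C had 15111 at the lowest, 18766 at the median and 21979 at the highest.

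Of the 6 cold knockout mice, 5 were above every cold control mouse, and the lowest of them was below the highest control. Their ratio of means was 1.48, and the log2 fold change was 0.58 (SE 0.11, 95% interval 0.34 to 0.81). Over 34 alternative settings it lay between 0.51 and 0.67. At RT the genotypes overlapped, with a log2 fold change of 0.16 (SE 0.11) and an adjusted p of 0.971.

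Between RT and 4°C in control mice the log2 fold change was 0.08 (SE 0.11, interval -0.15 to 0.31) and the mice overlapped, and it was -0.03 under 75th percentile scaling and -0.01 without control 4°C replicate 1. In knockout mice it was 0.49 (SE 0.11), and all 6 cold mice were above all 6 RT mice (24.2% of all genes did not overlap). The difference between these responses, the interaction, was 0.41 on the log2 scale (SE 0.15). No gene of the table passed the threshold for the interaction with limma, where 878 had an unadjusted p under 0.05 and DESeq2 called 28.

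**Figure D2:**
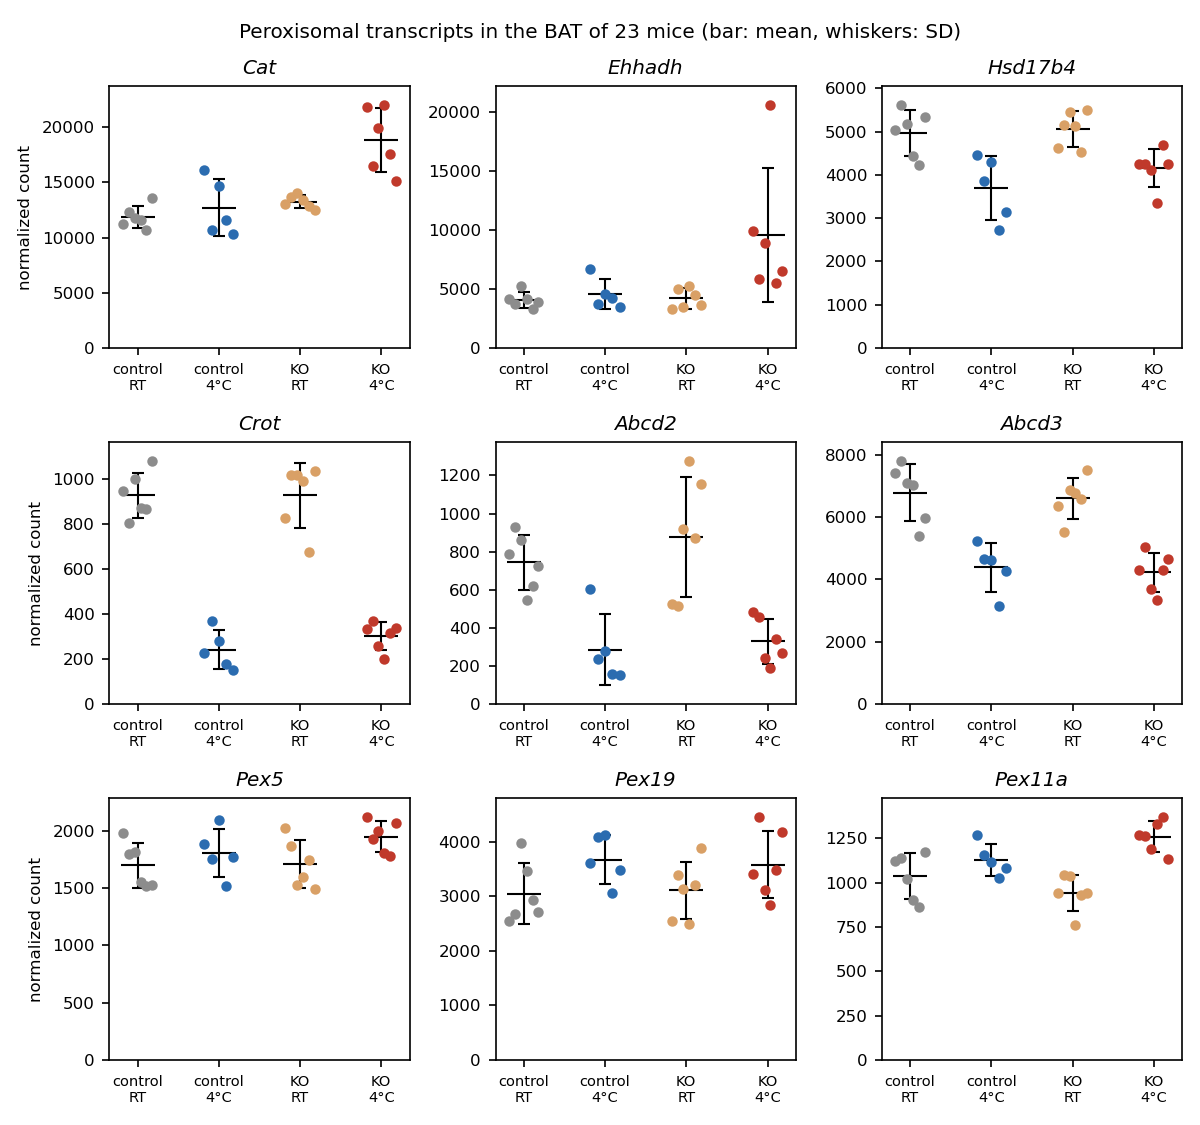
Normalized count of each of the 9 genes (vertical axes, from 0) in every mouse, with the group mean as a bar and the SD as whiskers, for control and BAT-Mcu-KO (KO) mice at RT and 4°C. The cold knockout mice lie highest for Cat and Ehhadh, with 1 Ehhadh value at 20519, and both cold groups lie far below the RT groups for Crot.

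Ehhadh encodes the L-bifunctional enzyme, which carries out the hydration and dehydrogenation steps of peroxisomal β-oxidation (chr16:21761287-21787807, minus strand; a small nuclear RNA gene, Gm24898, overlaps it). Control mice had 3266 to 5242 normalized counts at RT (median 3980), and 6701, 3714, 4589, 4221 and 3497 at 4°C. Knockout mice had 3263 to 5287 at RT (median 4040) and 5540 to 20519 at 4°C (median 7703). Of the 6 cold knockout mice, 3 were above every cold control mouse, and 1 of them, replicate 4, at 20519, was far from the next value of 9910.

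The log2 fold change of Ehhadh by genotype at 4°C was 0.94 (SE 0.24), and it was 0.69 without that mouse. At RT it was 0.03 (SE 0.23, adjusted p = 0.999). Cold differed from RT by 0.14 (SE 0.24) in control mice, which overlapped, or by -0.01 without control 4°C replicate 1. In knockout mice, where all cold mice were above all RT mice (24.2% of all genes did not overlap), it differed by 1.05 (SE 0.23). Without replicate 4 the last value was 0.79. The interaction was 0.91 (SE 0.33).

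Hsd17b4 encodes the D-bifunctional enzyme, which serves the same steps for branched and very long chains. A pseudogene, Cd63-ps, overlaps it. The median normalized count was 5110 in control mice at RT (4233 to 5607) and 5144 in knockout mice at RT (4520 to 5495). The cold control mice had 4462, 3856, 4295, 2736 and 3150, and the cold knockout mice 3352 to 4695 (median 4255). In contrast to Ehhadh, Hsd17b4 was lower at 4°C, by log2 fold changes of -0.44 (SE 0.11) in control and -0.29 (SE 0.11) in knockout mice, with overlapping groups. By genotype it differed at RT by 0.03 (SE 0.11, adjusted p = 0.999), and cold mice differed by 0.18 (SE 0.11), or by 0.08 without control 4°C replicate 4.

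Crot encodes carnitine octanoyltransferase, which joins the shortened chains to carnitine for export (chr5:8966033-8997324, minus strand; Gm15610, Gm37153 and Gm27941 overlap it). Its normalized count was 803 to 1078 in control mice at RT (median 909) and 675 to 1034 in knockout mice at RT (median 1004). At 4°C the control mice had 229, 367, 281, 178 and 152, and the knockout mice 198 to 369 (median 326). By cold, 25.2% of all genes in control and 24.2% in knockout mice did not overlap. For Crot every cold mouse was below every RT mouse of its genotype. The log2 fold change was -2.00 (SE 0.18) in control and -1.63 (SE 0.17) in knockout mice, a level of 0.260 and 0.326 times that at RT. By genotype it was -0.01 for RT (SE 0.17, adjusted p = 0.999), and among cold mice 0.37 (SE 0.18), or 0.22 without control 4°C replicate 5.

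Abcd2 and Abcd3 are ABC transporters of the peroxisomal membrane, Abcd2 for very long and polyunsaturated acyl-CoAs and Abcd3 for branched and dicarboxylic ones. Abcd2 (chr15:91145871-91191799, minus strand) had 546 to 927 normalized counts in control (median 756) and 513 to 1274 in knockout mice (median 896) at RT. At 4°C the control mice had 603, 238, 280, 159 and 151, and the knockout mice 189 to 482 (median 305). All cold knockout mice were below all RT mice of that genotype (24.2% of all genes did not overlap). In control mice replicate 1, at 603, reached into the RT range. The log2 fold changes by cold were -1.55 (SE 0.30) in control and -1.40 (SE 0.29) in knockout mice, and the first was -1.87 without that control mouse. The genotypes differed in Abcd2 by 0.18 for RT (SE 0.29, adjusted p = 0.997) and by 0.32 in the cold (SE 0.30).

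Abcd3 (chr3:121758774-121815302, minus strand; Gm43609 and 4633401B06Rik overlap it) had a median normalized count of 7052 in control (5391 to 7779) and 6677 in knockout mice (5524 to 7495) at RT. The cold control mice had 5241, 4662, 4630, 3143 and 4253, and the cold knockout mice 3339 to 5045 (median 4303). The groups did not overlap by cold in either genotype, as was so for 25.2% of all genes in control and 24.2% in knockout mice. The log2 fold changes were -0.64 (SE 0.12) and -0.65 (SE 0.12), and the interaction was -0.02 (SE 0.17). The genotypes differed in Abcd3 by -0.03 for RT (SE 0.12, adjusted p = 0.999) and by -0.05 in the cold (SE 0.12), or by 0.02 without control 4°C replicate 1 or BAT-Mcu-KO 4°C replicate 4.

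The peroxins Pex5 and Pex19 differed by at most 0.28 on the log2 scale in any comparison. Pex5, the receptor that imports matrix proteins such as catalase (chr6:124396816-124415067, minus strand), had medians of 1673 and 1671 normalized counts in control and in knockout mice at RT, and 1772 and 1966 at 4°C. Its log2 fold changes by cold were 0.09 (SE 0.09) and 0.20 (SE 0.09), with overlapping groups, and -0.11 and 0.01 under quantile normalization. Pex19, the chaperone of peroxisomal membrane proteins (chr1:172126755-172136493, plus strand), had medians of 2817 and 3174 at RT and 3609 and 3445 at 4°C. Its log2 fold changes by cold were 0.28 (SE 0.13) and 0.20 (SE 0.13), and the groups overlapped. By genotype at RT, Pex5 differed by 0.01 (SE 0.09) and Pex19 by 0.03 (SE 0.13), both with an adjusted p of 0.999, and at 4°C by 0.12 (SE 0.09) and -0.05 (SE 0.13). Without control 4°C replicate 4 the cold value of Pex5 was 0.06, and without BAT-Mcu-KO 4°C replicate 4 that of Pex19 was 0.02.

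Pex11a, a membrane protein that takes part in the division of peroxisomes, was the peroxin whose log2 fold change by cold in knockout mice lay nearest to that of Cat (chr7:79735957-79743131, minus strand). An antisense gene, Gm44706, overlaps it, and the counting did not use strand. Control mice had 863 to 1175 normalized counts at RT (median 1071) and 1266, 1158, 1116, 1027 and 1081 at 4°C. Knockout mice had 760 to 1041 at RT (median 939) and 1131 to 1367 at 4°C (median 1266). The cold knockout mice were all above the RT mice (24.2% of all genes did not overlap), with a log2 fold change of 0.42 (SE 0.09). The control groups overlapped, at 0.13 (SE 0.09). Under quantile normalization these values were 0.27 and -0.05. The interaction was 0.29 (SE 0.13). The genotypes differed in Pex11a by -0.14 for RT (SE 0.09, adjusted p = 0.971) and by 0.16 in the cold (SE 0.09). Plin1, the lipid droplet gene next to it, had log2 fold changes by cold of 0.47 in control mice (adjusted p = 0.0241) and 0.22 in knockout mice (adjusted p = 0.280).

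**Figure D3:**
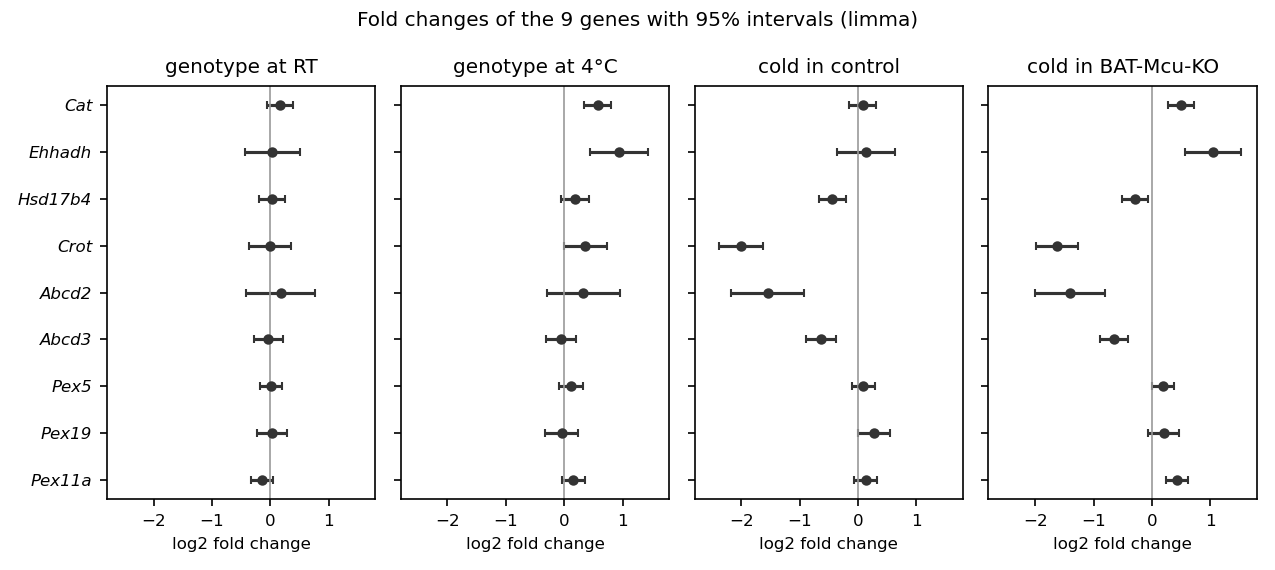
Log2 fold changes of the 9 genes with 95% intervals from limma, by genotype (BAT-Mcu-KO over control) at RT and 4°C and by cold (4°C over RT) in each genotype. All intervals cross 0 by genotype at RT. The panels by genotype at 4°C and by cold are a description, with no test read from them. Their points lie farthest right for Ehhadh and Cat by genotype at 4°C, and farthest left for Crot and Abcd2 by cold in both genotypes.

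Counted together, none of the 9 genes passed the threshold by genotype at RT, where 0.0478% of all genes did. The counts by genotype at 4°C and by cold only describe values that were in view when the genes were chosen. By genotype at 4°C, 7 of 9 had a positive log2 fold change. Over all genes 0.0410% were called higher and 0.0751% in either direction. Cat alone, 1 of the 9, was called higher. That count was 0 in 10 of 34 alternative settings, which were edgeR, limma without a variance trend, a fit of the cold groups alone and leaving out control 4°C replicate 2, 4 or 5 or BAT-Mcu-KO 4°C replicate 1, 3, 4 or 5. By cold in control mice 4 were called lower and none higher, against 23.7% and 22.3% of all genes, and in knockout mice 4 were called lower and 3 higher, against 21.9% and 21.4%. Hsd17b4, Crot, Abcd2 and Abcd3 were the lower genes in both, with Hsd17b4 in knockout mice not called without BAT-Mcu-KO RT replicate 3 or 6 or BAT-Mcu-KO 4°C replicate 4, and Cat, Ehhadh and Pex11a the higher ones. The median log2 fold change of the 9 genes was 0.03, 0.18, 0.08 and 0.20 in these comparisons, against 0.00, 0.01, -0.02 and -0.02 for all genes. Nothing is read from these counts, since the genes were chosen with the same values known. In whole tissue, fewer cells of a type and less RNA per cell cannot be told apart.

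Cell type markers were measured beside these genes, and their medians of summed normalized counts are given for control mice at RT and 4°C and then knockout mice at RT and 4°C. Over all genes, cold called 22.3% higher and 23.7% lower in control mice, and 21.4% and 21.9% in knockout mice. The 12 brown adipocyte markers had 226313, 349405, 222099 and 354234, with 5 called higher and 5 lower by cold in control mice, and 4 and 2 in knockout mice. The 6 macrophage markers had 685, 721, 751 and 893, with 3 called higher in BAT-Mcu-KO and none in control mice. The 5 endothelial markers had 3587, 5796, 3395 and 5336, with 2 called higher by cold in each genotype and 1, Emcn, lower in control mice. The 4 nerve sheath markers had 809, 508, 884 and 588, and 1 of them, S100b, was called lower in each genotype. The 6 measured red cell genes, of 7 listed, had 4951, 3551, 3321 and 3893, with 1885 to 6966 in single mice. The 8 skeletal muscle genes had 1803, 10894, 17855 and 3228, with 7.47 to 45850 in single mice. Neither list had a gene called in any comparison. By genotype at RT all 8 muscle genes had positive log2 fold changes (median 1.81) and all 6 red cell genes negative ones (-0.58). For the interaction the signs were the reverse, with medians of -1.22 and 0.56. The part of these cells in the levels of the 9 genes was not tested.

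None of the other 61 peroxisomal genes passed the threshold by genotype at 4°C, at RT or for the interaction, with limma, DESeq2 or edgeR. At RT 1 of them and for the interaction 0 had an unadjusted p under 0.05 with limma. The interaction was positive for 49 of the 61, against 52.0% over all genes. At 4°C, 49 of the 61 log2 fold changes were positive (47 under quantile normalization and 53 under 75th percentile scaling), against 51.2% over all genes, and 4, or 6.56%, had an unadjusted p under 0.05, against 6.98% of all genes. The nearest were Hacl1, a lyase that cleaves 2-hydroxyacyl-CoAs, at 0.84 (SE 0.24, adjusted p = 0.356), and Ephx2, an epoxide hydrolase, at 0.35 (SE 0.11, adjusted p = 0.455). A p above the threshold does not show that these genes were alike in both genotypes. The counts of signs were not tested. All 61 genes come from the same mice, and the interaction contains the difference at 4°C, so the 2 counts are not separate results.

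By cold, in contrast, 41 of the 61 genes were called in control mice (14 higher and 27 lower) and 37 in knockout mice (16 higher and 21 lower), against 46.0% and 43.3% of all genes. In both genotypes 35 were called in the same direction, 14 higher and 21 lower, and none was called in opposite directions. The share of all genes called in both genotypes was not counted, so nothing is read from the 35. Those of them that rose by 2-fold or more in both were Slc25a17, the cofactor carrier of the peroxisomal membrane, the thioesterases Acot5 and Acot6, the malonyl-CoA decarboxylase Mlycd and the protease Tysnd1. Those that fell as far were the D-family transporter Abcd4, known mainly from lysosomes, the oxidase Ddo, the enoyl-CoA reductase Pecr, the thioesterase Acot3 and the membrane protein Pxmp2. Over all genes, 7.44% rose and 9.55% fell that far in control mice, and 6.40% and 8.41% in knockout mice. These shares are for each genotype alone, and the share in both was not counted.

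Slc25a17 rose from a mean normalized count of 1129 to 3274 in control and from 1098 to 3304 in knockout mice, log2 fold changes of 1.54 (SE 0.10) and 1.60 (SE 0.10). Acot5 had 0 to 11 reads per mouse at RT and 126 to 1501 at 4°C, and it belongs with Acot3, Acot4 and Acot6 to a cluster of close copies, between which short reads may be split wrongly. The log2 fold changes in control and in knockout mice were 1.01 and 1.05 for Mlycd and 1.64 and 1.41 for Acot6. For Tysnd1 they were 1.59 (SE 0.41) and 1.04 (SE 0.40), with overlapping groups in both genotypes. Its highest RT knockout mouse, at 1342.7 normalized counts, was above every cold knockout mouse, the highest of which had 1335.5. Among the genes that fell, Abcd4 had log2 fold changes of -1.35 and -1.07, Pecr of -1.37 and -1.20, Pxmp2 of -1.24 and -1.18 and Acot3 of -2.87 and -1.67, while Ddo was at 0.465 and 0.506 times its RT mean. The thiolase Acaa1a, the last enzyme of the pathway, also fell, at -0.86 and -0.79 on the log2 scale.

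By role, and against 22.3% higher and 23.7% lower of all genes in control and 21.4% and 21.9% in knockout mice, the 26 other genes of β-oxidation and acyl-CoA handling had 9 higher and 11 lower by cold in control mice, and 10 and 10 in knockout mice. Of 8 other transporters and tethers, 1 was higher and 5 were lower in each genotype. Of 16 other peroxins and division factors, 2 were higher and 7 lower in control mice, and 2 and 2 in knockout mice. Of 6 peroxide and oxidant enzymes 3 were lower in each genotype, and 1, Ephx2, was higher in knockout mice at 0.27 (SE 0.10, adjusted p = 0.0364). The 5 genes of ether lipid synthesis had 2 higher and 1 lower in each. With libraries scaled to their 75th percentile, the median of the table by cold in control mice moved from -0.02 to -0.13 on the log2 scale and the share of higher calls from 48.5% to 38.2%. Of the 61 genes 13 were then higher and 32 lower.

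**Figure D4:**
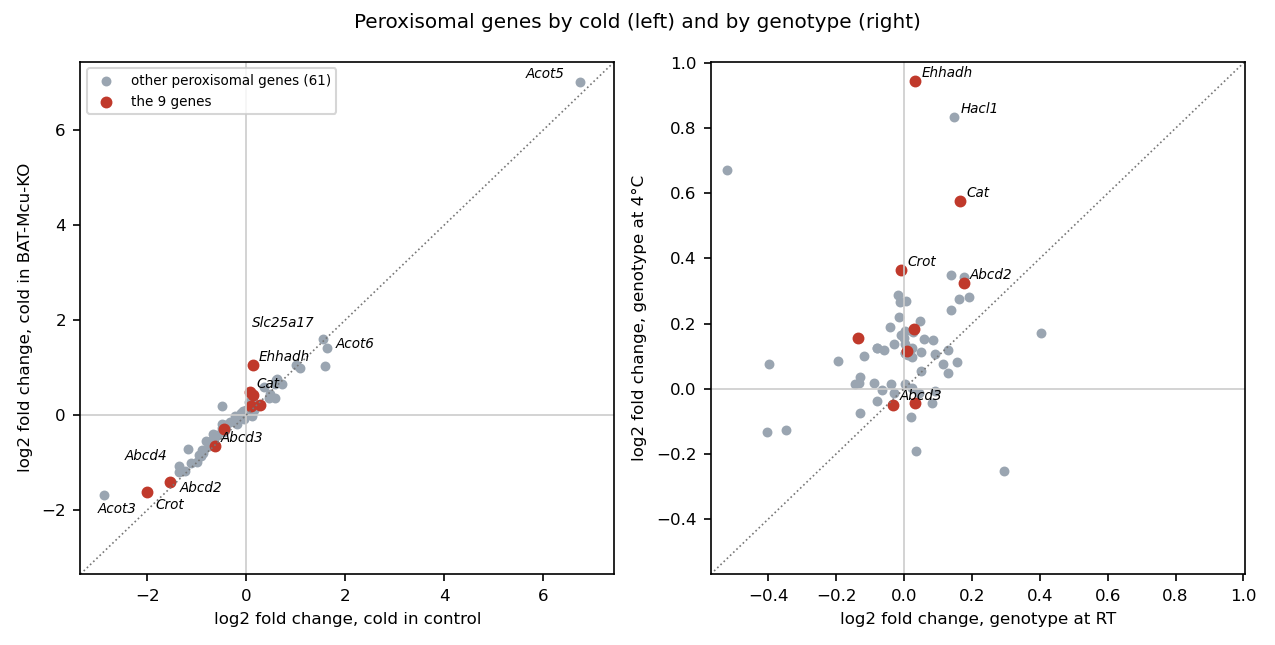
Log2 fold changes of the 9 genes and the 61 other peroxisomal genes, by cold in control (horizontal) and knockout mice (vertical) on the left, and by genotype at RT (horizontal) and 4°C (vertical) on the right, with a dotted line of equal values. By cold most genes lie near the line, with Acot3, Ehhadh, Hacl1, Acox2 and Cat farthest above it. Among these, Acot3 had only 0 to 70 reads per mouse and Acox2 1 to 46. Of the 61 other genes 49 lie above the line, which is the sign of the interaction, against 52.0% of all genes. By genotype Ehhadh, Hacl1, Acot3 and Cat lie highest at 4°C.

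The PPAR receptors and their partners were measured as known regulators of peroxisomal genes. None of the 15 was called by genotype at RT or 4°C. By cold, 5 were higher and 3 lower in control mice, against 22.3% and 23.7% of all genes, and 6 and 3 in knockout mice, against 21.4% and 21.9%. Those that fell were Ppara, with log2 fold changes of -0.58 and -0.83, the adipogenic coregulator Prdm16, with -0.71 and -0.73, and the corepressor Ncor1, with -0.30 and -0.49. Ppargc1a, the coactivator PGC-1α, rose by 5.10 and 4.33 on the same scale, Pparg by 0.51 and 0.44, Rxrg by 0.51 and 0.60, Foxo1 by 0.82 and 0.85 and Foxo3 by 0.92 and 0.57. At 4°C every knockout mouse was below every control mouse for Ppargc1a, as was so for 0.683% of all genes in either direction, with a log2 fold change of -0.85 (adjusted p = 0.284). Nfe2l2, which drives antioxidant genes, had 0.22 in control (adjusted p = 0.101) and rose by 0.55 in knockout mice. Ppard, Rxra, Rxrb, Ppargc1b and Nrip1 were not called by cold in either genotype, with log2 fold changes of -0.18 to 0.58.

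Within the groups, the genes whose levels varied from mouse to mouse most like Cat were Ccbl2, Hacl1, Atg101, Accsl and Osr2, with Pearson's r of 0.86, 0.85, 0.81, 0.81 and 0.80. These r are over the 23 mice after subtracting each group's mean on the log2 scale, they are the highest of all genes, and they are a description without a test. Among the other 8 genes Ehhadh came closest, with r = 0.67 at rank 68, and then Pex11a, with 0.43. Abcd2 (0.35), Hsd17b4 (0.33) and Pex5 (0.17) had lower values, and Crot (-0.04), Abcd3 (-0.05) and Pex19 (-0.28) were at or below 0. Between the genes that were lower after cold, r was 0.72 between Hsd17b4 and Abcd2, 0.72 between Hsd17b4 and Abcd3, 0.71 between Abcd2 and Abcd3, 0.67 between Hsd17b4 and Crot, 0.46 between Abcd3 and Crot and 0.45 between Abcd2 and Crot. The points share libraries and their depth.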

How the data were processed

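BAT RNA of 23 mice in 4 groups was measured by Smart-seq2, which amplifies cDNA by PCR without molecular identifiers. The authors aligned reads to mm10 with STAR (version 2.4.0j per the labels) and counted unique exonic reads with HTSeq irrespective of strand. The deposited signal is the count of each gene divided by the DESeq2 size factor of its library, and the authors kept genes that reached 8 reads in 6 samples or more. In each library 100% of values were whole multiples of 1 read (tolerance 0.01), which gave back the reads used for depth, DESeq2 and edgeR. The authors' table of comparisons, with fold changes and p-values, was not used, and 0 per-sample columns were left out. In the deposited counts 19 symbols had been turned into dates.

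The test was limma (version 3.58.1, R version 4.3.3) with a variance trend on log2(normalized count + 1), a mean for each group and all 23 samples, with Benjamini-Hochberg adjustment over 14651 genes and intervals from 19 residual degrees of freedom. It was tested on simulated data. The 9 genes and all lists were chosen with earlier results of these data known. Groups came from the labels. All 9 genes, other peroxisomal genes called in both genotypes by cold with a 2-fold change (up to 6 in each direction by p), regulators, Plin1, Mcu, Ucp1 and the 5 genes most like Cat were named by rule, while Acaa1a, Hacl1 and Ephx2 were added after their values were seen, and some results are not reported here. Alternatives were pseudocounts of 0.5 and 10.0, a mean of at least 50.0, at least 8 in every sample, quantile and 75th percentile scaling, no trend, 2 groups alone, a block for the replicate number, each mouse left out, and on the reads edgeR (version 4.0.16) and DESeq2 (version 1.42.0). Gene positions and exon lengths come from GENCODE M21 on GRCm38, a later release than the authors counted with, and promoters from RefSeq, which matched 6 of the 9 genes. Python (version 3.11.15), pandas (version 2.3.3) and matplotlib (version 3.10.9) were used. Mice are separate animals, since the tissue was taken once. Reads are PCR copies, so read numbers cover counting error only.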

Additional observations from a re-analysis of the deposited data

Results flagged for a closer look

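Ehhadh in BAT-Mcu-KO 4°C replicate 4 had a normalized count of 20519, with 9910 in the next mouse, a gap of 0.708 of the group's range against Dixon's critical value of 0.625. Abcd2 in control 4°C replicate 1 had 602.8, with 280.0 in the next mouse, a gap of 0.714 against 0.710. These were 2 of 36 groups of values examined, and chance flags about 1 in 20 groups. Without these mice the log2 fold change by genotype at 4°C was 0.69 for Ehhadh and 0.64 for Abcd2, against 0.94 and 0.32 with them. By cold Ehhadh had 0.79 in BAT-Mcu-KO mice and Abcd2 -1.87 in control mice.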

How the results depend on the processing

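The number of genes called by genotype at RT was 7, and 3 with the 2 groups alone, 20 with DESeq2 and 5 to 8 when 1 mouse was left out. At 4°C it was 11, and 7 without the variance trend, 2 with the 2 groups alone, 7 with the replicate number as a block, 23 with DESeq2, 6 with edgeR and 3 to 16 when 1 mouse was left out. For the interaction it was 0 with limma (878 at an unadjusted p under 0.05), 28 with DESeq2 and 0 to 1 when 1 mouse was left out, the 1 without control 4°C replicate 1. No other peroxisomal gene was called by genotype or for the interaction in any of these settings, and by cold 38 to 42 in control and 31 to 38 in BAT-Mcu-KO mice were called when 1 mouse was left out. The cause of these shifts was not tested.

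By genotype at RT the log2 fold change changed sign under quantile normalization for Hsd17b4 (-0.0113) and Pex5 (-0.0230) and under 75th percentile scaling for Pex5 (-0.0210). When 1 mouse was left out it ranged from -0.0396 to 0.109 for Ehhadh, -0.0150 to 0.0660 for Hsd17b4, -0.0964 to 0.0173 for Abcd3, -0.0434 to 0.0539 for Pex5, -0.0364 to 0.11 for Pex19 and -0.0495 to 0.0789 for Crot. None of the 9 genes was called at RT in any setting. Under quantile normalization the cold value in control mice was -0.05 for Pex11a and -0.11 for Pex5, and in BAT-Mcu-KO animals 0.27 and 0.01. With 1 mouse left out, the value by genotype at 4°C ranged from 0.0816 to 0.258 for Hsd17b4, 0.216 to 0.534 for Crot, 0.0564 to 0.172 for Pex5, -0.164 to 0.0203 for Abcd3 and -0.111 to 0.0180 for Pex19.

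Same-numbered mice are different animals. Their deviations correlated over 0.1 in 1 of 6 pairs by genotype at RT and 4 of 5 by genotype at 4°C (r from 0.00422 to 0.427). By cold it was 2 of 5 in control and 0 of 6 in BAT-Mcu-KO mice. The numbers were not taken to pair mice in the main fit. At 4°C, 3 of 5 correlated best with their own number. A pairing limited to 4°C was not tested, since the block for the replicate number spanned all 4 groups.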
